A study of Mus musculus with 12 samples.

Results

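The mitosis and G2/M genes examined here are 36 mouse genes that act between the end of DNA replication and the separation of the daughter cells. The rule is a list of gene symbols grouped by function and sets no threshold on a measured value, but the list was drawn up with earlier results of these data known. All 36 were found among the 54100 features shared by the 12 count files, and all 36 passed the filter on low counts in each of the 3 comparisons. The list holds the kinase Cdk1 with the cyclins that activate it (Ccna2, Ccnb1, Ccnb2), the F-box cyclin Ccnf, the entry phosphatase Cdc25c, and mitotic kinases with their spindle partners (Plk1, Aurka, Tpx2, Nusap1). It holds the spindle assembly checkpoint (Bub1, Bub1b, Bub3, Mad2l1, Ttk), an activator and the E2 enzyme of the anaphase-promoting complex (Cdc20, Ube2c), and the chromosomal passenger complex (Aurkb, Birc5, Cdca8, Incenp). Mitotic kinesins and the midzone (Kif11, Kif20a, Kif23, Kif2c, Kif4, Prc1), centromere and kinetochore genes (Cenpa, Cenpe, Cenpf, Ndc80, Nuf2, Spc25), Top2a, Mki67 and the transcription factor Foxm1 complete it.

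RNA was measured in 12 libraries that form 6 groups of 2, in a series on the kinase CK1α (gene Csnk1a1) and cGAS-STING signalling. The SSTC3 group received SSTC3, known as a CK1α activator, and the DMSO group its solvent. Both carry the label BMDM (bone marrow-derived macrophages) with a knockout named TREX1-KO and TREX2-KO for the SSTC3 libraries and TREX3-KO and TREX4-KO for the DMSO libraries, so that the number in the knockout name runs on from library to library. The CK1a_OV group (CK1α overexpression), its OV_control group, the CK1a_siRNA group (CK1α knockdown) and its knockdown_control group are labelled MEF (mouse embryonic fibroblasts). C57BL/6J is the genotype on every label, no label gives an age, a dose, a time, a construct or an siRNA sequence, and none says that libraries of a group came from separate cultures. The p-values below thus rest on library-to-library spread, which can be technical and is largely pooled over genes.

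Library totals ran from 16063627 to 19427506 counts. Csnk1a1, the check of the labels, had 171.5 and 169.2 CPM (counts scaled to the library total) in CK1a_siRNA, against 325.0 and 354.1 CPM in knockdown_control, a log2 fold change of −0.96 ± 0.05 (SE, n = 2 libraries per group, edgeR adjusted p = 2.94e-27). It had 229.3 and 244.4 CPM in CK1a_OV, against 237.8 and 234.7 CPM in OV_control (log2 fold change −0.01 ± 0.04, edgeR adjusted p = 0.901), so the overexpression direction rests on the label alone. The transcript had 426.4 and 424.0 CPM with SSTC3 and 413.2 and 430.0 CPM with DMSO (log2 fold change 0.07 ± 0.04, edgeR adjusted p = 0.111). The markers go against the label BMDM. In the 4 SSTC3 and DMSO libraries the 21 macrophage markers summed to 10.4 to 13.6 CPM, with 10 to 14 of them at 0 counts. Adgre1, Itgam, C1qa and Tyrobp were at 0 in all 4. The 14 fibroblast markers summed to 6211 to 7941 CPM. Of these only Lum was at 0 counts, in both SSTC3 libraries and in DMSO replicate 2. These are called the cells labelled BMDM below.

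Entry into mitosis is driven by Cdk1 bound to a B-type or A-type cyclin, switched on by Cdc25 phosphatases and by Plk1. Aurora kinases and kinesins then build the spindle, the checkpoint holds Cdc20 until every kinetochore is attached, and the anaphase-promoting complex marks the cyclins for destruction. The transcripts of most of these genes peak together in G2 and mitosis. Their promoters are known for a cell cycle genes homology region (CHR), which binds the DREAM and MMB complexes, and for CCAAT boxes, which bind NF-Y. In a mixed culture their level therefore follows the share of cells in those phases as well as the level per cell.

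RefSeq promoter windows on GRCm38.p6, from 250 bases before to 50 bases after the start, were at hand for 29 of the 36 genes, in 31 windows. The table used holds none for Ccna2, Cdc25c, Tpx2, Aurkb, Incenp, Kif20a and Foxm1. The motif TTTGAA, searched on both strands, stood in 24 of the 31 windows (77.4%), against 17.9% of all 32851 windows of that length. The variant TTCGAA stood in 3 windows (9.68% against 1.56%) and CCAAT in 25 (80.6% against 37.4%). Both a CCAAT and either CHR form were present in 23 windows (74.2%), against 7.52% of all windows. A match of either kind can share at most 1 base with a match of the other. A match is a match of letters and no evidence of binding. The windows of 4 genes whose changes frame the results are shown, on the coding strand, with the matches in capitals. Plk1 had the largest increase after knockdown, Ccnb1 encodes the main mitotic cyclin, Cenpf had the largest decrease with SSTC3, and Spc25 was the 1 gene to rise with SSTC3.
Plk1, chr7:122159185-122159484, plus strand: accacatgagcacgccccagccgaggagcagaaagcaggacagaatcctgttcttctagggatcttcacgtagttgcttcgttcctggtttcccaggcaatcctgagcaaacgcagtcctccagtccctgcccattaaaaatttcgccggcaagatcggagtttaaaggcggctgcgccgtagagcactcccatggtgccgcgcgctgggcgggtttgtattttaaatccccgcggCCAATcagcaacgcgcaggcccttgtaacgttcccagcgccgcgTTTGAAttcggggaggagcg
Ccnb1, chr13:100786437-100786736, minus strand: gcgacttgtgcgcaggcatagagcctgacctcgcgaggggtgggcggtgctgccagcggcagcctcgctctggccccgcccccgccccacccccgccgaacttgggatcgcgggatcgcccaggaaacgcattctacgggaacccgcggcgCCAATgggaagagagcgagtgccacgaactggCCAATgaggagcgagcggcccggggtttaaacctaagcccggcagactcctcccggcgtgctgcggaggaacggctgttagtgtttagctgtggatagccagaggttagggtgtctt
Cenpf, chr1:189688037-189688336, minus strand: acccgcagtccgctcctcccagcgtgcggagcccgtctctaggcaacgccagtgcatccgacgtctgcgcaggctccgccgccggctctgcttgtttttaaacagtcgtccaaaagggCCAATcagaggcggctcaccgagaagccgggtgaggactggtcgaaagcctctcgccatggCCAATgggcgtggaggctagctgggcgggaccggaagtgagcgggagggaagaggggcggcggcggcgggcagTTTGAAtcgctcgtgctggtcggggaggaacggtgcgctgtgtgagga
Spc25, chr2:69206164-69206463, minus strand: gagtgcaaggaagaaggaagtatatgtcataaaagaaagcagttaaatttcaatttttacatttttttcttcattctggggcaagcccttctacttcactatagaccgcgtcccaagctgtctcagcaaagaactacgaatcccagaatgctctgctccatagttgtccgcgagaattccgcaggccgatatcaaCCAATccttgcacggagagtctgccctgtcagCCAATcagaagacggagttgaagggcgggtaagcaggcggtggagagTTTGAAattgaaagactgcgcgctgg

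In the mm10 annotation these genes are ENSMUSG00000030867 (Plk1, chromosome 7, 122159439 to 122169873), ENSMUSG00000041431 (Ccnb1, chromosome 13, 100778650 to 100786570), ENSMUSG00000026605 (Cenpf, chromosome 1, 189640606 to 189688086) and ENSMUSG00000005233 (Spc25, chromosome 2, 69193895 to 69206194). Plk1, Cenpf and Spc25 have the same 2 kinds of element. Counted with the start base as 1, TTTGAA begins at base 31, 3 and 25 in Plk1, Cenpf and Spc25. The nearest CCAAT begins 14, 71 and 23 bases before the start base. Ccnb1 has CCAAT 99 and 67 bases before the start and neither CHR form in this window. The 3 genes with both elements moved in different directions below, but they were picked for their changes. Nothing about the elements is read from that difference.

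Among the 36 genes, 27 fell and 1 rose with SSTC3, against 26.5% and 27.1% of all genes tested. Their median log2 fold change was −0.35. The decreases were deepest for Cenpf, Ccnf, Plk1 and Aurkb, each at 0.470 to 0.564 times its DMSO level, and the 6 mitotic kinesin and midzone genes all fell. After CK1α knockdown 24 of the 36 genes rose and 1 fell, with a median of 0.33, led by Plk1, Kif2c and Ccna2. Of all genes tested there, 28.3% rose and 26.4% fell. In CK1a_OV 9 of the 36 genes rose by small amounts and the rest did not pass, with a median of 0.07. Of all genes tested in that comparison, 5.78% rose and 7.57% fell. The summed level of the 36 genes was 5128 and 5029 CPM with SSTC3, against 6998 and 7069 CPM with DMSO. It was 5423 and 5436 CPM in CK1a_OV, against 5145 and 5127 CPM in OV_control. In CK1a_siRNA it was 2131 and 2133 CPM, against 1728 and 1752 CPM in knockdown_control. The summed levels of the groups did not overlap in any comparison. Fewer cells in G2 and mitosis and less of these transcripts per cell cannot be told apart in such bulk libraries.

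**Figure D1:**
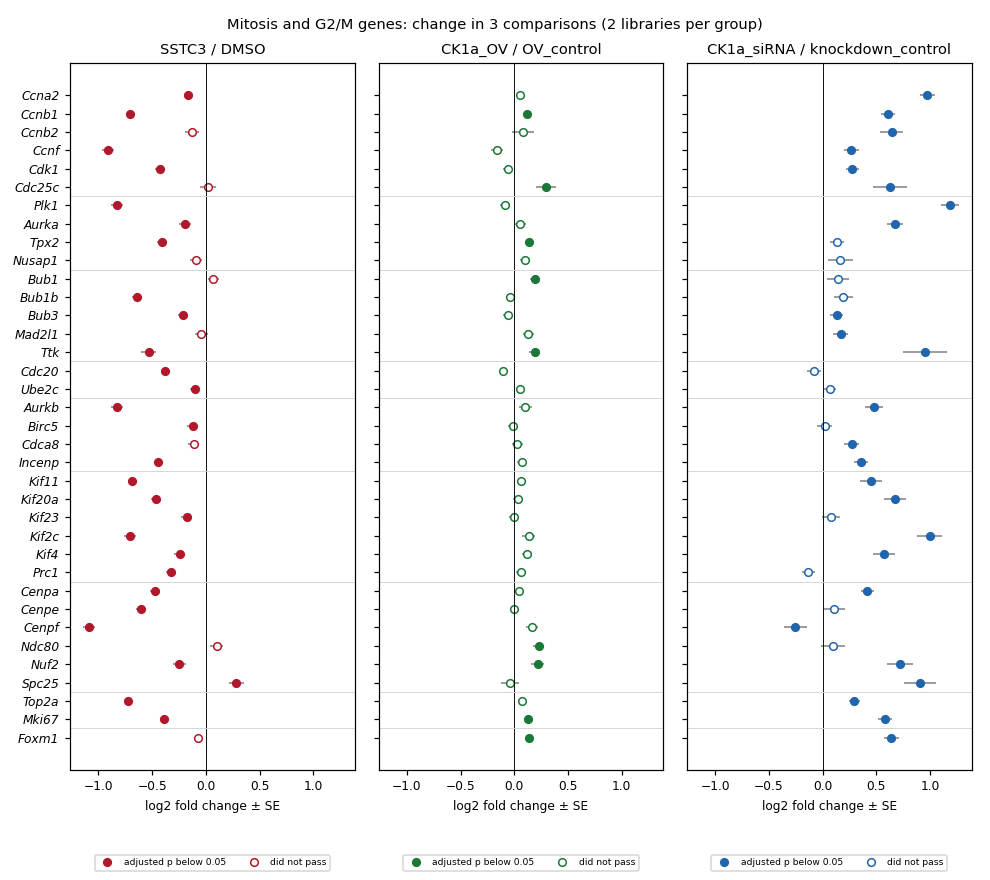
Log2 fold change ± SE of each of the 36 genes (rows, grouped by role) in SSTC3 against DMSO, CK1a_OV against OV_control and CK1a_siRNA against knockdown_control, from 2 libraries per group; filled points have an adjusted p below 0.05. Most filled points lie left of 0 with SSTC3 (27 of 28) and right of 0 after knockdown (24 of 25), and the 9 in CK1a_OV lie close to 0.

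The share of all genes that fell with SSTC3 was 26.5% of the 14151 genes tested by edgeR's quasi-likelihood test with Benjamini-Hochberg adjustment, and 27.1% rose, with a median log2 fold change of 0.01. Against that, 27 of the 36 mitosis and G2/M genes fell, 1 rose and 8 did not pass. Without DMSO replicate 2 the genes that rose numbered 3, as Bub1 and Ndc80 then passed. The fibroblast markers moved with this result. They summed to 6211 and 6357 CPM with SSTC3 and 7941 and 7650 CPM with DMSO, and 9 of the 13 tested fell. The macrophage markers summed to 13.6 and 12.7 CPM with SSTC3 and 10.6 and 10.4 CPM with DMSO. The part of these marker changes in the result was not tested, and the knockout numbers in the labels differ between all 4 libraries, so that their part cannot be told apart from that of SSTC3.

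Of the mitotic cyclins, Cdk1 and Cdc25c, 4 of 6 fell with SSTC3. Ccnb1, cyclin B1 of the kinase that starts mitosis, had 183 and 178 CPM with SSTC3, against 302 and 308 CPM with DMSO. Both SSTC3 libraries lay below both DMSO libraries, and the log2 fold change was −0.70 ± 0.04 (SE, n = 2 per group, edgeR adjusted p = 1.15e-41). Ccnf, an F-box cyclin that targets proteins for degradation in G2, had 71.4 and 71.5 CPM with SSTC3, against 141 and 138 CPM with DMSO, and fell by 0.91 ± 0.05 on the log2 scale (edgeR adjusted p = 3.62e-41). Cdk1 itself had 174 and 171 CPM with SSTC3, against 238 and 245 CPM with DMSO (log2 fold change −0.43 ± 0.04). Ccna2, which also acts in S phase, was lowered least of the 4, to 326 and 332 CPM against 387 and 382 CPM with DMSO (log2 fold change −0.17 ± 0.04, edgeR adjusted p = 4.44e-05). Cyclin B2 did not pass. Ccnb2 had 62.9 and 62.4 CPM with SSTC3 and 73.7 and 68.6 CPM with DMSO (log2 fold change −0.13 ± 0.06, edgeR adjusted p = 0.0801). Cdc25c, which removes the inhibitory phosphates of Cdk1, had 38.8 and 38.9 CPM with SSTC3 and 39.6 and 40.1 CPM with DMSO (log2 fold change 0.02 ± 0.08, edgeR adjusted p = 0.853), with a sign that turns to −0.04 when scaled by library totals.

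Plk1, the polo-like kinase of mitotic entry, centrosomes and cytokinesis, had 81.0 and 80.0 CPM with SSTC3, against 156 and 141 CPM with DMSO. The groups were far apart, and it fell by 0.83 ± 0.05 on the log2 scale (edgeR adjusted p = 3.54e-37). Aurkb, the kinase of the chromosomal passenger complex, changed by the same amount, with 68.4 and 68.7 CPM in SSTC3 libraries against 126 and 126 CPM in DMSO libraries (log2 fold change −0.83 ± 0.06, edgeR adjusted p = 1.51e-34). Its partners had smaller values. Incenp, the scaffold of the complex, had a log2 fold change of −0.44 ± 0.04. Survivin, encoded by Birc5, had 108 and 104 CPM with SSTC3 and 119 and 121 CPM with DMSO, a log2 fold change of −0.12 ± 0.05 whose adjusted p of 0.0376 with edgeR became 0.102 with DESeq2. Borealin, encoded by Cdca8, had 103 and 107 CPM with SSTC3 and 116 and 119.9 CPM with DMSO (log2 fold change −0.11 ± 0.05, edgeR adjusted p = 0.0604).

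Aurka, the centrosomal Aurora kinase, had 104 and 101 CPM with SSTC3, against 126 and 117 CPM with DMSO, a log2 fold change of −0.19 ± 0.05 (edgeR adjusted p = 0.000895) that no longer passed without DMSO replicate 1 (adjusted p = 0.0517). Its activator Tpx2 had 187 and 192 CPM with SSTC3, against 262 and 259.8 CPM with DMSO (log2 fold change −0.41 ± 0.04). Nusap1, which binds spindle microtubules, had 94.4 and 94.8 CPM with SSTC3 and 102 and 108 CPM with DMSO (log2 fold change −0.09 ± 0.05, edgeR adjusted p = 0.143). In the same libraries the log2 fold changes of Aurkb and Aurka were thus −0.83 and −0.19, a gap between genes that was not tested.

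Within the checkpoint, 3 of 5 genes fell with SSTC3. Bub1b, which encodes the Cdc20-binding checkpoint protein BubR1, had 129 and 126 CPM with SSTC3, against 209.7 and 204 CPM with DMSO (log2 fold change −0.64 ± 0.05, edgeR adjusted p = 1.43e-31). Ttk, the kinase Mps1 at the top of the checkpoint, had 42.5 and 40.8 CPM with SSTC3, against 61.2 and 63.8 CPM with DMSO (log2 fold change −0.53 ± 0.07). Bub3, the adaptor of both Bub proteins, had the smallest of these decreases (log2 fold change −0.21 ± 0.05). Bub1, the kinase related to BubR1, had 120.3 and 106 CPM with SSTC3 and 106 and 118 CPM with DMSO, so its groups overlapped (log2 fold change 0.07 ± 0.05, edgeR adjusted p = 0.27). Mad2l1, the Mad2 inhibitor of Cdc20, had 75.8 and 77.6 CPM with SSTC3 and 79.8 and 84.4 CPM with DMSO (log2 fold change −0.04 ± 0.06, edgeR adjusted p = 0.562).

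Cdc20, the target of the checkpoint, had 195 and 192 CPM with SSTC3, against 266 and 258 CPM with DMSO (log2 fold change −0.38 ± 0.04, edgeR adjusted p = 4.79e-16). Ube2c, the E2 enzyme that works with the anaphase-promoting complex, had 194 and 190.1 CPM with SSTC3, against 210.5 and 218 CPM with DMSO. Its groups did not overlap, but the log2 fold change of −0.10 ± 0.04 (edgeR adjusted p = 0.0356) did not pass with DESeq2 (adjusted p = 0.0664). In all, 22.8% of the exonic bases of Ube2c lie under Tnnc2 on the opposite strand, and the strand setting of the counting is not given.

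All 6 kinesin and midzone genes fell with SSTC3, by log2 fold changes of −0.70 to −0.18. Kif2c, which depolymerizes microtubules at kinetochores, had 75.2 and 76.1 CPM with SSTC3, against 127 and 129 CPM with DMSO (log2 fold change −0.70 ± 0.05, edgeR adjusted p = 5.82e-28). Kif11, the motor that pushes the spindle poles apart, had 193 and 189 CPM with SSTC3, against 314 and 325 CPM with DMSO (log2 fold change −0.69 ± 0.04). Neither pair of groups overlapped. Kif20a, a motor of cytokinesis, had 144 and 148 CPM with SSTC3, against 214 and 205 CPM with DMSO (log2 fold change −0.46 ± 0.05), and 29.3% of its exonic bases are shared with Cdc23 on the opposite strand. Prc1, which bundles midzone microtubules, Kif4, which binds Prc1, and Kif23, a centralspindlin subunit, followed with −0.33 ± 0.05, −0.24 ± 0.05 and −0.18 ± 0.05. Without SSTC3 replicate 2 the adjusted p of Kif23 was 0.0637, against 0.0011 with all 4 libraries.

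The 6 centromere and kinetochore genes spread most widely with SSTC3. Cenpf, a large protein of the outer kinetochore and nuclear matrix, had 73.5 and 71.9 CPM with SSTC3, against 151 and 171 CPM with DMSO. Both SSTC3 libraries lay far below both DMSO libraries, and the log2 fold change of −1.09 ± 0.05 (edgeR adjusted p = 4.27e-53) was the lowest of the 36. Cenpe, a kinetochore motor, had a log2 fold change of −0.61 ± 0.05, and Cenpa, the centromeric histone, of −0.47 ± 0.04. Of the 3 measured subunits of the Ndc80 complex, which attaches microtubules, 1 fell, 1 rose and 1 did not pass. Nuf2 had 69.3 and 65.8 CPM with SSTC3, against 83.9 and 82.6 CPM with DMSO (log2 fold change −0.25 ± 0.06, edgeR adjusted p = 0.000219). Ndc80 had 86.8 and 77.9 CPM with SSTC3 and 73.8 and 85.8 CPM with DMSO, with overlapping groups (log2 fold change 0.10 ± 0.06, edgeR adjusted p = 0.156). Spc25 had 62.7 and 60.6 CPM with SSTC3, against 51.4 and 53.8 CPM with DMSO, and rose by 0.28 ± 0.07 on the log2 scale (edgeR adjusted p = 0.000122). That call held in all 11 alternatives of the processing.

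Top2a, the topoisomerase that untangles sister chromatids, had 492 and 461 CPM with SSTC3, against 800.1 and 835 CPM with DMSO (log2 fold change −0.72 ± 0.04, edgeR adjusted p = 1.5e-53). Mki67, which coats mitotic chromosomes and marks cycling cells, had 382 and 374 CPM with SSTC3, against 504 and 524 CPM with DMSO (log2 fold change −0.39 ± 0.04). Foxm1, the factor that activates many of these genes together with MMB, had 164 and 168 CPM with SSTC3 and 180.4 and 181 CPM with DMSO. Its groups did not overlap, but the log2 fold change of −0.07 ± 0.05 did not pass (edgeR adjusted p = 0.198). With library totals Foxm1, Ccnb2, Nusap1 and Cdca8 were called lower too (adjusted p = 0.0141, 0.00966, 0.015 and 0.00378), for 31 lower genes in all. By promoter, the 21 genes with both CCAAT and a CHR form had a median log2 fold change of −0.38 with SSTC3, with 17 lower and 1 higher. Birc5, Mad2l1, Nuf2 and Nusap1, which have neither in the window, had a median of −0.11. Ccnb1 and Cenpe, with CCAAT alone, had a median of −0.65, Kif2c and Ndc80, with a CHR form alone, of −0.30, and the 7 genes without a window of −0.41. After knockdown the medians were 0.28 with both elements (14 higher and 1 lower of 21), 0.17 with neither, 0.36 with CCAAT alone, 0.55 with a CHR form alone and 0.63 without a window. No order by promoter is read from groups this small.

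**Figure D2:**
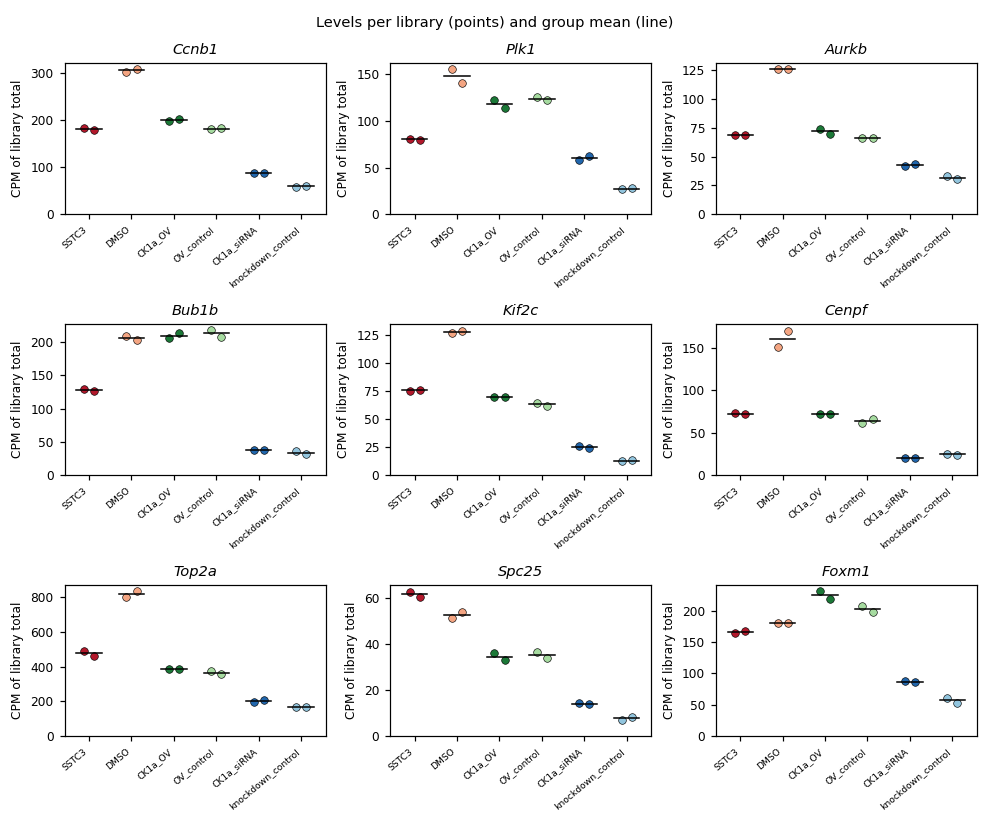
CPM of the library total (y axis, from 0) in each library for 9 of the genes, with SSTC3 left of DMSO, CK1a_OV left of OV_control and CK1a_siRNA left of knockdown_control; points are libraries and lines are means of 2. The SSTC3 points lie below the DMSO points in every panel but Spc25, where they are 62.7 and 60.6 CPM against 51.4 and 53.8 CPM, and the 4 libraries of the knockdown comparison are the lowest in every panel.

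After CK1α knockdown the direction was the opposite for most of the list: 24 genes rose, 1 fell and 11 did not pass. Leaving out single libraries gave 0 to 2 lower genes, with 0 without either CK1a_siRNA library or knockdown_control replicate 1 and 2 without knockdown_control replicate 2. Of the 14832 genes tested, 28.3% rose and 26.4% fell, with a median log2 fold change of −0.01. All 6 of the listed cyclins, Cdk1 and Cdc25c rose, as did 2 of the 4 mitotic kinase and spindle genes, 3 of 5 checkpoint genes, 3 of 4 passenger genes, 4 of 6 kinesin and midzone genes and 3 of 6 kinetochore genes. Neither Cdc20 nor Ube2c passed. The fibroblast markers summed to 1413 and 1433 CPM in CK1a_siRNA and 1620 and 1576 CPM in knockdown_control. Of these 14 markers, 2 or 3 were at 0 counts, namely Dcn and Lum in all 4 libraries and Thy1 in CK1a_siRNA replicate 1. The macrophage markers summed to 323.6 and 326.3 CPM in CK1a_siRNA and 277.0 and 270.3 CPM in knockdown_control, with 6 or 7 of the 21 at 0 counts and C1qa, C1qb and C1qc at 0 in all 4 libraries. Most of that sum was Cd68, with 296.0 and 294.6 CPM in CK1a_siRNA and 252.0 and 246.0 CPM in knockdown_control. The part of these markers in the result was not tested.

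The 36 genes had low levels in the knockdown comparison. Over the 36 genes, the mean CPM of OV_control was 1.20 times that of knockdown_control for Ccnf and 19.8 times for Ttk, with a median of 3.48, although both are labelled MEF. The DMSO mean was 1.27 to 16.4 times the knockdown_control mean, with a median of 4.54. These ratios cross the control groups of different comparisons, which no label says were prepared together, and carry no test. Ttk had 52 and 78 counts in knockdown_control, and its log2 fold change below has an SE of 0.21.

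Plk1 had the largest increase. It had 58.0 and 62.8 CPM in CK1a_siRNA, against 26.5 and 28.0 CPM in knockdown_control, and rose by 1.18 ± 0.08 on the log2 scale (edgeR adjusted p = 7.36e-20). Aurka had 67.1 and 67.5 CPM in CK1a_siRNA, against 43.9 and 42.6 CPM in knockdown_control (log2 fold change 0.67 ± 0.07, edgeR adjusted p = 3.12e-12). For neither kinase did the groups overlap. Their spindle partners did not pass. Tpx2 had 85.9 and 94.3 CPM in CK1a_siRNA and 85.0 and 83.3 CPM in knockdown_control (edgeR adjusted p = 0.061), and Nusap1 had 20.5 and 17.7 CPM in CK1a_siRNA and 17.4 and 17.6 CPM in knockdown_control (edgeR adjusted p = 0.243).

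Ccna2 had 95.9 and 92.1 CPM in CK1a_siRNA, against 44.1 and 53.7 CPM in knockdown_control, a log2 fold change of 0.98 ± 0.07 (edgeR adjusted p = 2.54e-18). Ccnb1 had 87.8 and 87.3 CPM in CK1a_siRNA, against 57.8 and 60.2 CPM in knockdown_control (log2 fold change 0.60 ± 0.07), and Ccnb2 28.3 and 27.6 CPM against 17.6 and 18.998 CPM in knockdown_control (log2 fold change 0.64 ± 0.11). Here the cyclins B1 and B2 had changes of like size. Cdc25c had 11.3 and 11.4 CPM in CK1a_siRNA, against 7.97 and 7.12 CPM in knockdown_control (log2 fold change 0.63 ± 0.16). The increases of Cdk1 (0.28 ± 0.06) and Ccnf (0.27 ± 0.07) were smaller.

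Kif2c had 26.0 and 24.3 CPM in CK1a_siRNA, against 12.2 and 13.6 CPM in knockdown_control, so its level in CK1a_siRNA was 1.99 times that in knockdown_control (log2 fold change 1.00 ± 0.12, edgeR adjusted p = 3.98e-11). Kif20a, Kif4 and Kif11 rose by 0.67 ± 0.10, 0.57 ± 0.10 and 0.45 ± 0.11 on the log2 scale. Kif23 had 38.0 and 38.6 CPM in CK1a_siRNA and 35.5 and 38.7 CPM in knockdown_control, with overlapping groups (edgeR adjusted p = 0.45). Prc1 had 81.9 and 77.9 CPM in CK1a_siRNA and 90.8 and 89.1 CPM in knockdown_control, below the controls but short of the threshold (log2 fold change −0.13 ± 0.06, edgeR adjusted p = 0.0578). Of the passenger complex, Aurkb had 41.5 and 43.7 CPM in CK1a_siRNA, against 32.7 and 30.1 CPM in knockdown_control (log2 fold change 0.48 ± 0.09, edgeR adjusted p = 3.04e-06). Incenp and Cdca8 rose by 0.36 ± 0.07 and 0.27 ± 0.07, and Birc5 had 58.9 and 57.1 CPM in CK1a_siRNA and 60.3 and 57.1 CPM in knockdown_control (edgeR adjusted p = 0.854).

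At the kinetochore, Spc25 had 14.6 and 13.8 CPM in CK1a_siRNA, against 7.16 and 8.35 CPM in knockdown_control (log2 fold change 0.90 ± 0.15, edgeR adjusted p = 3.64e-07). Nuf2 had 20.6 and 24.6 CPM in CK1a_siRNA, against 14.5 and 13.6 CPM in knockdown_control (log2 fold change 0.72 ± 0.12). Their complex partner Ndc80 had 19.5 and 19.1 CPM in CK1a_siRNA and 17.4 and 19.6 CPM in knockdown_control, with overlapping groups (edgeR adjusted p = 0.498). The kinetochore genes thus held increases beside a gene that did not pass, and Cenpa also rose, by 0.41 ± 0.06. Cenpf was the exception in direction, with 19.9 and 20.7 CPM in CK1a_siRNA against 25.4 and 24.3 CPM in knockdown_control (log2 fold change −0.25 ± 0.11, edgeR adjusted p = 0.0372), a call lost with DESeq2 (adjusted p = 0.239). The call was also lost without CK1a_siRNA replicate 1 (0.2), CK1a_siRNA replicate 2 (0.0907) or knockdown_control replicate 1 (0.137), given as adjusted p. Cenpe had 24.8 and 26.2 CPM in CK1a_siRNA and 23.1 and 25.3 CPM in knockdown_control (edgeR adjusted p = 0.384).

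Of the checkpoint genes, Ttk had 7.36 and 7.10 CPM in CK1a_siRNA, against 3.24 and 4.37 CPM in knockdown_control (log2 fold change 0.95 ± 0.21, edgeR adjusted p = 7.95e-05). Bub3 and Mad2l1 passed narrowly, with log2 fold changes of 0.13 ± 0.06 and 0.17 ± 0.07 (edgeR adjusted p = 0.049 and 0.0293), and neither call survived DESeq2 (adjusted p = 0.158 and 0.131). Without CK1a_siRNA replicate 1, CK1a_siRNA replicate 2 or knockdown_control replicate 1, their adjusted p-values lay between 0.0968 and 0.225. Bub1 and Bub1b did not pass (edgeR adjusted p = 0.259 and 0.0617). Mki67 had 97.1 and 102 CPM in CK1a_siRNA, against 63.7 and 72.8 CPM in knockdown_control (log2 fold change 0.58 ± 0.06), and Top2a 197 and 206 CPM, against 166 and 169.9 CPM in knockdown_control (0.30 ± 0.05). Foxm1 had 87.5 and 86.1 CPM in CK1a_siRNA, against 60.8 and 53.6 CPM in knockdown_control, and rose by 0.64 ± 0.07 (edgeR adjusted p = 1.37e-12). All 3 were higher in both knockdown libraries than in both controls.

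In CK1a_OV the list changed little. Of 13958 genes tested, 5.78% rose and 7.57% fell, with a median log2 fold change of 0.00, and 9 of the 36 genes rose, 0 fell and 27 did not pass. By edgeR 0 fell at the threshold, 2 at an unadjusted p below 0.05, 0 with DESeq2, and 1 with a filter of at least 1 CPM in 2 libraries (Cdc20, adjusted p = 0.0443). The largest increase was that of Cdc25c, with 34.7 and 31.0 CPM in CK1a_OV against 27.1 and 26.0 CPM in OV_control (log2 fold change 0.29 ± 0.09, edgeR adjusted p = 0.0231). Ndc80 had 88.0 and 90.2 CPM in CK1a_OV, against 77.0 and 73.9 CPM in OV_control (0.23 ± 0.05), and Nuf2 84.0 and 94.2 CPM, against 72.5 and 79.4 CPM in OV_control (0.22 ± 0.06). The remaining increases were smaller: Bub1 0.19 ± 0.04, Ttk 0.19 ± 0.05, Tpx2 0.14 ± 0.03, Foxm1 0.14 ± 0.04, Mki67 0.12 ± 0.03 and Ccnb1 0.12 ± 0.04, as log2 fold changes. Only Tpx2, Bub1 and Mki67 passed under every alternative, and DESeq2 called just these 3, while it called 2.3% of the 8007 genes it tested higher and 4.18% lower.

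Tpx2 had 385 and 384 CPM in CK1a_OV, against 342 and 349.6 CPM in OV_control (edgeR adjusted p = 0.00114). Bub1 had 161 and 163 CPM in CK1a_OV, against 141 and 139.6 CPM in OV_control (edgeR adjusted p = 0.000741). Mki67 had 563 and 589 CPM in CK1a_OV, against 526 and 521 CPM in OV_control (edgeR adjusted p = 0.00139). In each the 2 overexpression libraries lay above both controls, with fold changes of 1.10 for Tpx2, 1.14 for Bub1 and 1.09 for Mki67. The calls of Ccnb1, Cdc25c, Foxm1, Nuf2 and Ttk were each lost when some single library was left out. The adjusted p of Ccnb1 was 0.123 without CK1a_OV replicate 2, 0.15 without OV_control replicate 1 and 0.0924 without OV_control replicate 2. That of Cdc25c was 0.282 without CK1a_OV replicate 1, 0.0525 without OV_control replicate 1 and 0.111 without OV_control replicate 2. Foxm1 had 0.122 without CK1a_OV replicate 1 and 0.147 without OV_control replicate 2. Nuf2 had 0.202 without CK1a_OV replicate 2 and 0.163 without OV_control replicate 1. Ttk had 0.0692 without CK1a_OV replicate 2 and 0.0844 without OV_control replicate 2. The fibroblast markers summed to 3170 and 3197 CPM in CK1a_OV and 3456 and 3405 CPM in OV_control. Of these 14 markers, 1 to 3 were at 0 counts, among them Lum in every library. The macrophage markers summed to 23.7 and 22.5 CPM in CK1a_OV and 21.2 and 23.1 CPM in OV_control, with 9 to 11 of the 21 at 0 counts. The part of both marker lists was not tested.

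**Figure D3:**
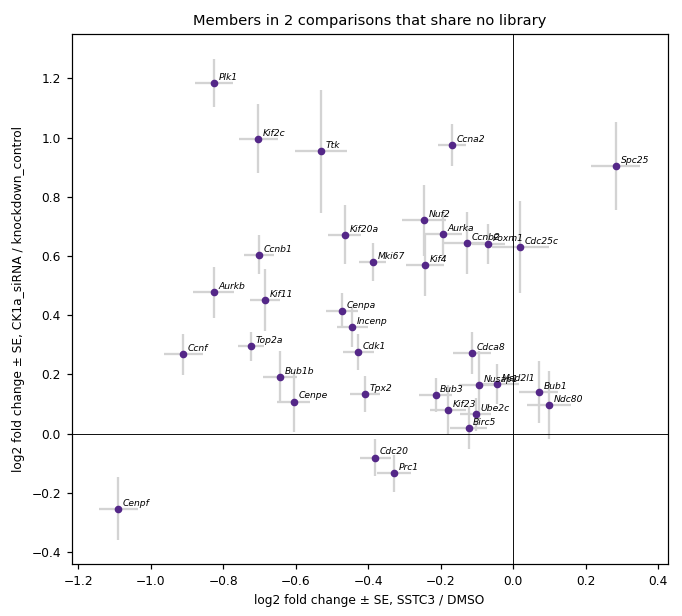
Log2 fold change ± SE of the 36 genes with SSTC3 against DMSO (x axis) and in CK1a_siRNA against knockdown_control (y axis), comparisons that share no library. Most genes lie in the upper left, lower with SSTC3 and higher after knockdown; Spc25 lies upper right at 0.28 and 0.90, and Cenpf lower left at −1.09 and −0.25.

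SSTC3 and CK1α knockdown, which the series uses to act on CK1α in opposite ways, were compared gene by gene. In all, 18 of the 36 genes fell with SSTC3 and rose after knockdown, 1 fell in both (Cenpf) and 1 rose in both (Spc25). A further 8 fell with SSTC3 and did not pass after knockdown, 5 rose after knockdown and did not pass with SSTC3, and 3 passed in neither (Bub1, Ndc80 and Nusap1). The share of all genes in each of these joint classes was not counted. Singly, 26.5% of all genes tested fell and 27.1% rose with SSTC3, and 28.3% rose and 26.4% fell after knockdown. The difference between the 2 log2 effects was tested as a contrast in an edgeR fit that holds all 12 libraries. The SSTC3 effect was below the knockdown effect for 30 of the 36 genes and above it for 0, against 21.6% and 23.5% of all 17105 genes tested. At an unadjusted p below 0.05 the 0 above remained 0, and it was 0 under each of 12 alternatives, all in edgeR. The median difference over the 36 was −0.76 on the log2 scale, against 0.08 over all genes.

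Plk1 had the widest difference, −1.98 ± 0.09 (SSTC3 effect minus knockdown effect on the log2 scale, edgeR adjusted p = 3.73e-35). Kif2c followed with −1.67 ± 0.11, Ttk with −1.45 ± 0.17, Ccnb1 with −1.28 ± 0.07 and Aurkb with −1.27 ± 0.09. The effects also differed for Spc25, which rose in both (−0.59 ± 0.14, edgeR adjusted p = 0.00039), and for Cenpf, which fell in both (−0.81 ± 0.11). No difference was called for Nusap1, Bub1, Mad2l1, Ube2c, Birc5 or Ndc80, whose values lay between −0.23 ± 0.11 and 0.03 ± 0.12. The sizes of the 2 effects had no common order: over the 36 genes Spearman's rho between them was −0.107, as a description over genes that share their libraries.

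The overexpression effect was below the knockdown effect for 21 genes and above it for 2 (Cenpf, 0.45 ± 0.11, and Prc1, 0.23 ± 0.07), against 18.3% and 16.8% of all genes. Plk1 again stood first (−1.23 ± 0.09), followed by Spc25 (−0.91 ± 0.15) and Ccna2 (−0.89 ± 0.07). The call of Prc1 was lost without OV_control replicate 2 (adjusted p = 0.0513) or CK1a_siRNA replicate 2 (0.0611). The median difference was −0.30. SSTC3 and overexpression, both meant to raise CK1α activity, differed too. The SSTC3 effect was below the overexpression effect for 25 genes, with Cenpf (−1.26 ± 0.09) and Aurkb (−0.94 ± 0.09) first, and above it for Spc25 (0.32 ± 0.12, edgeR adjusted p = 0.0261). Of all genes, 15.5% were below and 17.2% above. The Spc25 call was lost with library totals (adjusted p = 0.0817) and with no filter (0.0616). It was also lost without SSTC3 replicate 1, DMSO replicate 1, CK1a_OV replicate 2 or OV_control replicate 1, with adjusted p-values of 0.107 to 0.16.

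Other cell cycle lists were read against the shares over all genes, which were 27.1% higher and 26.5% lower with SSTC3, 28.3% and 26.4% after knockdown, and 5.78% and 7.57% in CK1a_OV. Among 30 other spindle, kinesin and cytokinesis genes, 21 fell and 4 rose with SSTC3, with a median log2 fold change of −0.26. Kif20b, a kinesin of cytokinesis, had 74.1 and 69.6 CPM with SSTC3, against 167 and 173 CPM with DMSO (−1.19 ± 0.05), and Kif22, Aspm and Ckap5 fell by 0.74, 0.72 and 0.60 on the log2 scale. After knockdown 14 rose and 7 fell, led by Troap with 30.5 and 32.2 CPM in CK1a_siRNA against 11.0 and 12.6 CPM in knockdown_control (1.45 ± 0.11). The share that fell was near that of all genes. In CK1a_OV 6 rose and 1 fell.

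Among 35 other kinetochore and checkpoint genes the SSTC3 response was mixed, with 14 lower, 8 higher and a median of −0.05. Knl1, the kinetochore scaffold for Bub proteins, had 53.7 and 51.0 CPM with SSTC3, against 89.0 and 95.1 CPM with DMSO (−0.76 ± 0.06). Cenpn, which reads the centromeric nucleosome, had 82.2 and 84.3 CPM with SSTC3, against 50.2 and 53.9 CPM with DMSO (0.73 ± 0.06). Knl1 and Cenpn, named for their small adjusted p, thus moved apart as Cenpf and Spc25 did. The share of the 35 that rose was below the 27.1% of all genes, and the share that fell was above the 26.5%. After knockdown 16 rose and 7 fell, among them Sgo1, the protector of centromeric cohesion, with 22.7 and 21.1 CPM in CK1a_siRNA against 7.78 and 11.1 CPM in knockdown_control (1.24 ± 0.13). In CK1a_OV 6 rose and 29 did not pass.

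Of 19 condensin, cohesin and separase genes, 10 fell and 1 rose with SSTC3, with separase (Espl1) first at 208.8 and 215 CPM against 326 and 339.8 CPM with DMSO (−0.60 ± 0.04). After knockdown 4 rose and 3 fell, both shares below those of all genes, and in CK1a_OV 3 rose and 16 did not pass. Of 17 anaphase-promoting complex subunits and regulators, 9 fell and 4 rose with SSTC3, with the share that rose near that of all genes. Its other activator Fzr1 (Cdh1) had 55.0 and 56.9 CPM with SSTC3, against 123 and 115 CPM with DMSO (−1.03 ± 0.06). After knockdown 5 rose and 2 fell, with the share that rose near that of all genes, and the inhibitor Fbxo5 (Emi1) had 62.4 and 64.8 CPM in CK1a_siRNA, against 25.7 and 28.9 CPM in knockdown_control (1.25 ± 0.08). In CK1a_OV 2 rose and 1 fell.

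Regulators of mitotic entry outside the 36 went both ways with SSTC3, with 6 higher and 7 lower of 15 tested. Cdc25b, an activating phosphatase, had 63.4 and 58.4 CPM with SSTC3, against 111 and 114 CPM with DMSO (−0.83 ± 0.06). Gtse1 rose by 0.75 ± 0.05, and the Cdk1-inhibiting kinases Pkmyt1 and Wee1 by 0.51 ± 0.05 and 0.47 ± 0.06. After knockdown 6 rose and 4 fell, with the share that fell near the 26.4% of all genes. Wee1 had 76.7 and 77.6 CPM in CK1a_siRNA, against 26.8 and 28.9 CPM in knockdown_control (1.505 ± 0.08). Gtse1 rose by 1.27 ± 0.09 after knockdown, so Wee1 and Gtse1 rose in both comparisons. In CK1a_OV 3 rose and 1 fell.

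The genes of the preceding phases did not share the decrease with SSTC3. Of 43 G1/S and replication genes, 30 rose and 4 fell, with a median log2 fold change of 0.33. Cdc6, a loader of the replicative helicase, had 136 and 135 CPM with SSTC3, against 60.2 and 56.0 CPM with DMSO (1.28 ± 0.06), and Cdt1, its partner, had 378 and 373 CPM with SSTC3, against 185 and 185 CPM with DMSO (1.08 ± 0.04). After knockdown 31 rose and 3 fell, with a median of 0.40, in the same direction as the 36 genes. Ccne1, the G1/S cyclin E1, had 60.4 and 60.05 CPM in CK1a_siRNA, against 17.99 and 17.2 CPM in knockdown_control (1.81 ± 0.09). In CK1a_OV 4 rose and 4 fell.

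**Figure D4:**
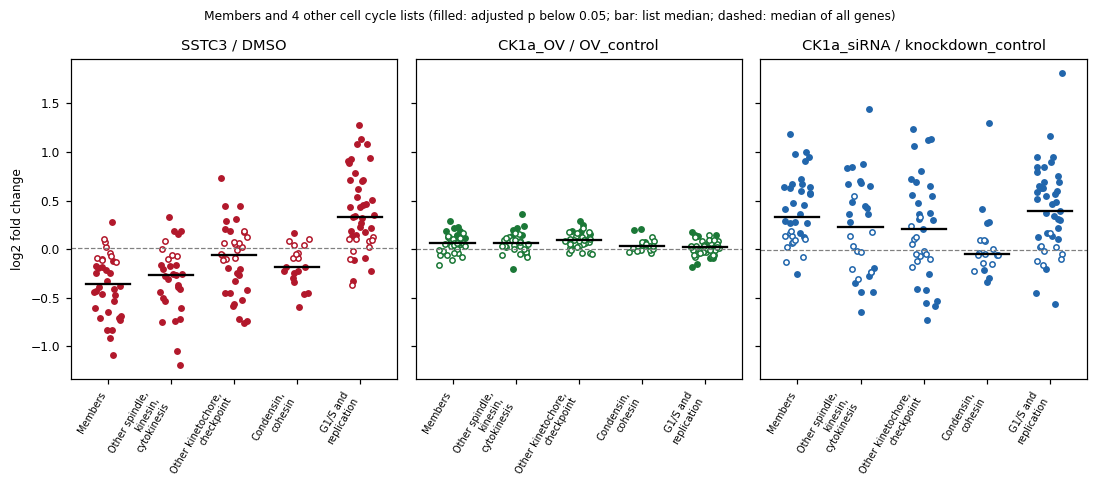
Log2 fold changes of the 36 genes (left column of each panel) and of 4 other cell cycle lists in the 3 comparisons; each point is a gene, filled where the adjusted p is below 0.05, bars are list medians and the dashed line is the median of all genes tested. With SSTC3 the medians are −0.35 for the 36 genes and 0.33 for the G1/S and replication genes; after knockdown they are 0.33 and 0.40.

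The CDK inhibitors and the factors that bind the promoter elements were read beside the list. Cdkn1a, which encodes the p53-induced inhibitor p21, had 397.9 and 413.6 CPM with SSTC3, against 38.5 and 40.01 CPM with DMSO, and rose by 3.42 ± 0.05 on the log2 scale (edgeR adjusted p = 4.46e-164). It had 172.5 and 177.9 CPM in CK1a_siRNA, against 346.6 and 330.4 CPM in knockdown_control, and fell by 0.91 ± 0.05 (edgeR adjusted p = 1.35e-26). Its level was 670.3 and 637.6 CPM in CK1a_OV and 725.7 and 712.0 CPM in OV_control, and it fell by 0.15 ± 0.03 (edgeR adjusted p = 6.09e-05). Cdkn1a thus moved opposite to most of the 36 genes in the SSTC3 and knockdown comparisons, and its part in their change was not tested.

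The other CDK inhibitors went both ways. With SSTC3, Cdkn3 rose by 0.98 ± 0.13, while Cdkn2c, Cdkn1b, Cdkn2d and Cdkn2b fell by 0.71 ± 0.05, 0.60 ± 0.06, 0.59 ± 0.10 and 0.36 ± 0.10, and Cdkn2a and Cdkn1c did not pass. After knockdown Cdkn2d fell by 0.93 ± 0.12 and Cdkn2c rose by 0.39 ± 0.08, while Cdkn1b, Cdkn1c and Cdkn3 did not pass and Cdkn2a and Cdkn2b had 0 counts in all 4 libraries. In CK1a_OV Cdkn1b rose by 0.22 ± 0.06, Cdkn2a, Cdkn2b, Cdkn2c, Cdkn2d and Cdkn3 did not pass, and Cdkn1c had 0 counts.

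Of 23 DREAM, MMB and E2F regulators, 9 rose and 3 fell with SSTC3 (median 0.03), against 27.1% and 26.5% of all genes. After knockdown 12 rose and 6 fell (median 0.33), against 28.3% and 26.4%, so the share that fell was near that of all genes. In CK1a_OV 4 rose and 1 fell, against 5.78% and 7.57%. With SSTC3 the MYB-family activator Mybl1 rose by 1.37 ± 0.11, to 35.5 and 30.3 CPM in SSTC3 libraries, against 13.4 and 13.1 CPM in DMSO libraries. The repressors E2f8 and E2f7 rose by 0.78 ± 0.06 and 0.69 ± 0.06. The NF-Y subunit Nfyb, whose complex reads the CCAAT box, had 61.6 and 61.9 CPM with SSTC3, against 35.01 and 38.1 CPM with DMSO (0.81 ± 0.07). Nfya, another subunit, had 105 and 99.6 CPM in CK1a_siRNA, against 48.4 and 46.7 CPM in knockdown_control (1.14 ± 0.07). E2f7 rose in both comparisons, by 0.71 ± 0.08 after knockdown.

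Levels between genes were set side by side per length, as CPM per kilobase of exon, with the exons of all annotated transcripts of a gene merged. The order of the genes thus also depends on which transcripts are annotated. Cdc20 was first in all 3 control groups, with 140.2 ± 3.2 CPM per kilobase with DMSO, 102 ± 0.76 in OV_control and 47.0 ± 1.0 in knockdown_control (SD, n = 2). With DMSO it was followed by Ccna2 at 94.1 ± 0.9 and Top2a at 90.7 ± 2.8 CPM per kilobase, whose ranges come close to each other, and by Ube2c at 82.4 ± 2.1. In OV_control Tpx2 came next at 73.9 ± 1.1, followed by Plk1 at 56.4 ± 1.0 CPM per kilobase. In knockdown_control Ube2c was close to Cdc20 at 42.7 ± 0.9, and Top2a came next at 18.7 ± 0.3 CPM per kilobase. At the low end stood Cdc25c with 8.10 ± 0.07 CPM per kilobase with DMSO, Cenpf with 4.13 ± 0.21 in OV_control, and Ttk with 0.77 ± 0.16 in knockdown_control. Cenpf, the gene with the deepest fall with SSTC3, was thus among the 3 lowest per kilobase in every control group.

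Some of these counts may include reads of neighbours. Beside Kif20a and Ube2c, the opposite-strand overlap covered 15.1% of the exonic bases of Kif4 (Pdzd11), 12.7% of Cdc25c (Gm3550), 12.5% of Ccna2 (Exosc9) and 11.1% of Prc1 (Rccd1). The processed copies Ccnb1-ps and Ccnb2-ps had 6 to 42 and 1 to 20 counts per library, small beside their parent genes, and Kif4-ps had 0.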

How the data were processed

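RNA was sequenced from poly(A)-selected libraries, per the labels' protocols. The authors deposited whole-number counts per gene, unscaled, made with HISAT2 and featureCounts on mm10, per the submitters' processing notes. Not given in the sources used here are tool versions, annotation and strand setting. The overexpression files list 55401 features and the others 54532. Symbols, lengths and overlaps came from GENCODE M21, which named all but 297 of the 54100 shared features.

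For each comparison, its 4 libraries were fitted with edgeR 4.0.16 in R 4.3.3 (filterByExpr, TMM factors, robust quasi-likelihood F test, no block), with Benjamini-Hochberg adjustment over all genes tested and a threshold of 0.05. "Rose" and "fell" refer to that test. SE is the absolute log2 fold change over the square root of F. The common biological coefficient of variation was 0.0341 (SSTC3), 0.0396 (overexpression) and 0.0431 (knockdown), with 2 residual degrees of freedom each. The median prior degrees of freedom, which come from the spread over all genes, were 256.6, 51.2 and 59.5. The p-values thus rest mostly on variance pooled over genes. Differences between effects are contrasts in 1 fit of all 12 libraries. Levels are CPM of library totals. Promoter windows and sequences are from RefSeq. Alternatives were RLE factors, library totals, DESeq2 1.42.0, other filters, the replicate number as a block, all libraries in 1 fit, and leaving out each library. The fits were tested on data simulated with 1 dispersion for all genes, which does not cover spread that differs between genes.

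Within pairs of libraries, the chi-square of counts per degree of freedom was 2.29 to 3.61, so no library was counted as a copy. Named genes are the 36, Csnk1a1, all 8 CDK inhibitors and up to 4 genes per list with the smallest adjusted p. The 36 genes and the lists were chosen with earlier results of these data known.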

Additional observations from a re-analysis of the deposited data

How the results depend on the processing

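Of 27 genes lower with SSTC3, 23 were called under all 11 alternatives, as were 22 of 24 higher after knockdown and 3 of 9 higher in CK1a_OV. In these 3 comparisons the largest lost call was a log2 fold change of 0.29 (Cdc25c in CK1a_OV). With library totals 31 genes were lower with SSTC3 and the SSTC3 median was −0.41, 2 genes were lower after knockdown, and 0 were above in SSTC3 minus overexpression (0 also with no filter). With DESeq2, 2548 of all genes rose with SSTC3, 184 rose and 335 fell in CK1a_OV with 3 of the 36 higher, and 2514 fell after knockdown with 0 of the 36 lower. With no filter 0 of the 36 were lower after knockdown, with at least 1 CPM in 2 libraries 2 were, and 1 was lower in CK1a_OV. With all 12 libraries in 1 fit 3 were lower after knockdown and 436 of all genes rose in CK1a_OV. Leaving out single libraries gave 1 to 3 of the 36 higher with SSTC3, 0 to 1 lower in CK1a_OV (with 432 to 611 of all genes higher and 633 to 867 lower), 0 to 2 lower after knockdown, 1 to 2 above in overexpression minus knockdown and 0 to 1 above in SSTC3 minus overexpression. The cause was not tested.

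Signs turned for genes that did not pass in the reported fits, nor in the fits where they turned, listed here as log2 fold changes. Of these, Bub1 (0.15) and Ndc80 (0.21) were called higher with SSTC3 without DMSO replicate 2. With SSTC3, Cdc25c was −0.035 with library totals and −1.86e-06 with DESeq2, and leaving out libraries gave −0.023 to 0.15 for Bub1 and −0.011 to 0.21 for Ndc80. In CK1a_OV, Kif23 was 0.0086 with library totals, 0.0013 with DESeq2 and 0.00053 with no filter, and Cenpe 0.012, 0.0045 and 0.0037. Leaving out libraries there gave −0.017 to 0.17 for Ccnb2, −0.036 to 0.030 for Kif23, −0.012 to 0.10 for Cenpa, −0.028 to 0.028 for Cenpe, −0.077 to 0.045 for Birc5, −0.011 to 0.073 for Kif20a and −0.10 to 0.022 for Spc25. After knockdown, Birc5 was −0.017 with library totals, −0.019 with all 12 libraries in 1 fit, and −0.023 to 0.060 when libraries were left out.

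Deviations of same-numbered libraries correlated at −0.0598 to 0.105 between groups over 10672 genes, with the highest value between DMSO and knockdown_control. No strong pairing by replicate number was thus seen, but a weak one could give values of this size. With the replicate number as a block, 25 of the 36 genes fell and 1 rose with SSTC3, 9 rose in CK1a_OV, and 23 rose and 1 fell after knockdown. The block gave 29 below in SSTC3 minus knockdown, 21 below and 2 above in overexpression minus knockdown, and 24 below and 1 above in SSTC3 minus overexpression.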
